A study of Caenorhabditis elegans with 3 samples.

Results

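The noncoding RNA rncs-1 (WormBase gene WBGene00023069, sequence name F55A4.9) carried clusters of DCR-1, the worm's single Dicer, on both labelled exons in pooled lists. Its members here were the clusters that the authors annotated in sense to rncs-1, together with clusters on the other strand that overlapped them by at least 1 base. There were 13 such clusters among the 9293 entries of the 5 deposited lists, 11 of them in sense and 2 on the opposite strand. The same pooled clusters can appear in both the consensus and the conservative list, so these entries are not all separate places.

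Dicer is the RNase III enzyme that cuts miRNA precursors and long double-stranded RNA into small RNAs. The rncs-1 transcript is known from earlier work as a long hairpin RNA made in the intestine and hypodermis, whose level rises on starvation. In that work its branched ends kept Dicer from cutting the helix, and the RNA inhibited Dicer acting on other substrates. These statements are background and were not tested in these libraries.

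All 3 libraries were made from whole young adult worms of a strain labelled FLAG:DCR-1, which the design text describes as a rescue strain carrying FLAG-tagged DCR-1. The animals were labelled with 4-thiouridine (4SU), a photoreactive nucleoside, and irradiated with UV, so that a crosslinked base appears as a T-to-C conversion in the sequenced fragment (PAR-CLIP). T1/V1 replicates 1 and 2 are labelled with RNases T1 and V1 and a custom 3' adapter, and T1 replicate 3 with RNase T1 and the default adapter, although the design text names both nucleases for the whole experiment. RNase T1 cuts after unpaired G and RNase V1 cuts base-paired RNA. Nuclease and adapter changed together and cannot be told apart. The promoter driving the tagged protein and the number of worm cultures are not stated in the labels, so differences between libraries may be technical. No library without the tag or without crosslinking was analysed here.

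Of the library lists, T1/V1 replicate 1 had 399 clusters (7829 reads), T1/V1 replicate 2 had 377 (10834 reads) and T1 replicate 3 had 1304 (24992 reads). Of the pooled lists, the consensus had 4705 clusters (92004 reads) and the conservative 2508 (78157 reads). Reads, conversions and edits are the authors' counts per cluster, and coordinates are those of the lists, whose genome build the sources used here do not name. As a check of the labelled tissue, with 10.2% of 19983 protein-coding genes holding a consensus cluster on an exon as the background, consensus clusters lay on exons of 4 of 6 yolk protein genes of the adult intestine, 2 of 3 muscle genes, 3 of 3 germline genes and 2 of 2 adult collagen genes. They also lay on 2 of 3 further intestinal genes and on 0 of 2 further hypodermal genes, lin-26 and dpy-7. In whole worms, fewer cells of a type and less RNA per cell cannot be told apart.

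In the consensus list rncs-1 carried 3 sense clusters with 922 reads, 710 conversions and 1115 edits of all kinds. They lay on the plus strand of chromosome X and are called the first, middle and last cluster here, in the direction of transcription. The first cluster, at chrX:1011599-1011844, held 318 reads over 246 bases. The middle cluster, at chrX:1011887-1011944, held 9 reads over 58 bases. The last cluster, at chrX:1011976-1012268, held 595 reads over 293 bases. The last cluster therefore held 64.5% of the consensus reads of rncs-1, and the middle one lay at a level far below both others. Per base of cluster, the last had 2.03 reads, the first 1.29 and the middle 0.155.

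**Figure D1:**
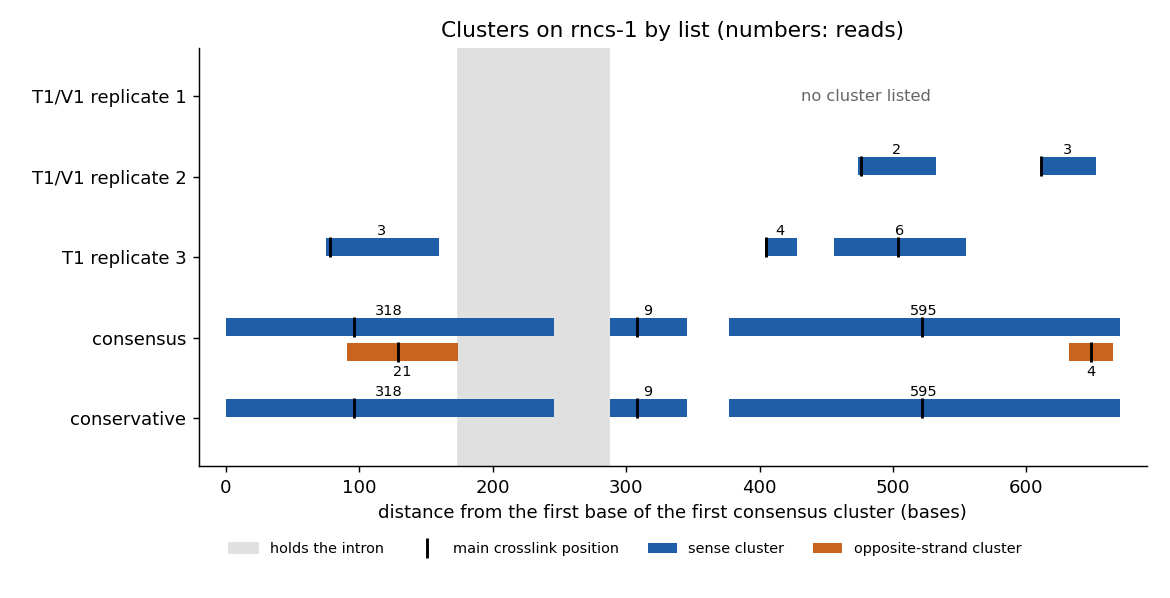
Clusters on rncs-1 in each of the 5 lists, drawn to scale along the distance in bases from the first base of the first consensus cluster, with sense clusters in blue, opposite-strand clusters in orange and the main crosslink position as a black tick. Numbers are reads, and the grey band is the stretch within which the intron lies; the 3 consensus clusters hold 318, 9 and 595 reads, and the library clusters hold 2 to 6.

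The 3 clusters covered 597 of the 670 bases from the first base of the first cluster to the last base of the last, or 89.1%. The uncovered bases formed gaps of 42 and 31 bases, one on each side of the middle cluster. No cluster carried the authors' label for a transcript start, and the ends of the gene were not used here because the build is unknown. The share of the whole transcript that is covered was therefore not computed.

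The authors' exon and intron labels place the clusters on the 2 exons. The first cluster was labelled with exon 1, with the intron and with SS5, the authors' code at an exon and intron border, while the middle and last clusters were labelled with exon 2 alone. An opposite-strand cluster labelled with exon 1 and not with the intron ended at 1011772, and the exon 2 label began at 1011887 or before. The intron thus lay within the 114 bases from 1011773 to 1011886. Of the 597 covered bases, at most 72 can be intronic and at least 525 are exonic. The gap of 42 bases between the first and middle clusters lay wholly within the stretch that holds the intron.

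Conversions were frequent in all 3 clusters. The last cluster had 463 conversions among 707 edits, or 65.5 conversions per 100 edits (95% interval 61.9 to 69.0). The first had 239 among 398, or 60.1 (55.1 to 64.9), and the middle had 8 among 10, or 80.0 (44.4 to 97.5). The intervals of the first and last clusters overlapped. These are exact Clopper-Pearson intervals that cover counting error only, since reads of 1 cluster are not independent molecules. Summed over the gene, 63.7 of 100 edits were conversions (60.8 to 66.5), against 41.8 over the whole consensus list and 48.9 over its miRNA clusters. Without the last cluster the value for rncs-1 was 60.5. The median miRNA cluster had 53.4 conversions per 100 edits, the median coding exon cluster 50.0 and the median snoRNA cluster 15.4. The 1161 clusters outside the named classes, mostly of few reads, had a median of 66.7, above the summed value for rncs-1. Summed over their edits, as for rncs-1, they had 44.0, below it.

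The other edits on rncs-1, whose type the lists do not give, numbered 244 in the last cluster, 159 in the first and 2 in the middle. That was 0.410, 0.500 and 0.222 other edits per read. Among the 57 consensus clusters with at least 300 reads, a minimum chosen after the values were seen, the last rncs-1 cluster had the fewest other edits per read, below the 0.442 of the lowest among the clusters of other genes. Over all 4705 clusters its 0.410 lay between the lower quartile of 0.286 and the median of 0.500, and the lowest value was 0. The first rncs-1 cluster ranked 50 of 57 from the highest. In the same set the last and first clusters ranked 3 and 6 by conversions per 100 edits, where the median was 43.7. Over all 4705 consensus clusters, most of which hold few reads, they ranked 1782 and 1881 by this measure, below the upper quartile of 75. The clusters that lay above the last one belonged to the tRNA gene T07H6.t1, with 73.7, and to a cluster downstream of F31F6.4, with 67.6. The miRNA genes mir-79 and mir-50, with 61.5 and 60.9, lay between the last and the first rncs-1 cluster.

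**Figure D2:**
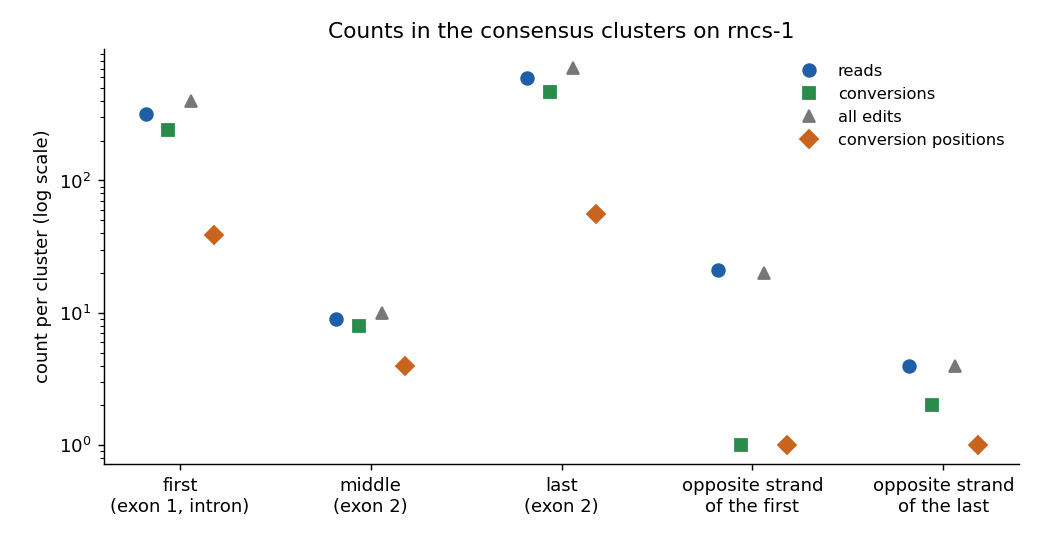
Reads, conversions, all edits and positions with a conversion (log scale) in the 3 sense and 2 opposite-strand consensus clusters on rncs-1, each point being the authors' count for 1 cluster. The sense clusters hold 239, 8 and 463 conversions, and the opposite-strand clusters 1 and 2.

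Conversions in the last and first rncs-1 clusters were spread over more positions than in any consensus cluster of another gene. The last cluster had conversions at 56 positions and the first at 39, the highest and second highest counts among all 4705 consensus clusters. The highest count elsewhere was 31, in the cluster over the miRNA genes mir-35 and mir-36 with its 1856 reads. The Y RNA yrn-1 followed with 30. The middle rncs-1 cluster had 4 positions, against a median of 2 over the list. In total 99 of the 597 covered bases of rncs-1 carried a conversion.

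Both length and density of positions entered these counts. Per 100 bases the last cluster had 19.1 positions, the first 15.9 and the middle 6.90, against a median of 21.3 for the 57 clusters with at least 300 reads. By this density the last and first clusters ranked 32 and 46 of 57, so the high counts were not matched by a high density among clusters rich in reads. By length they ranked 2 and 3 of the 57, behind a mitochondrial cluster of 815 bases. Conversions per position numbered 8.27 in the last cluster and 6.13 in the first, against a median of 17.3 in that set.

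**Figure D3:**
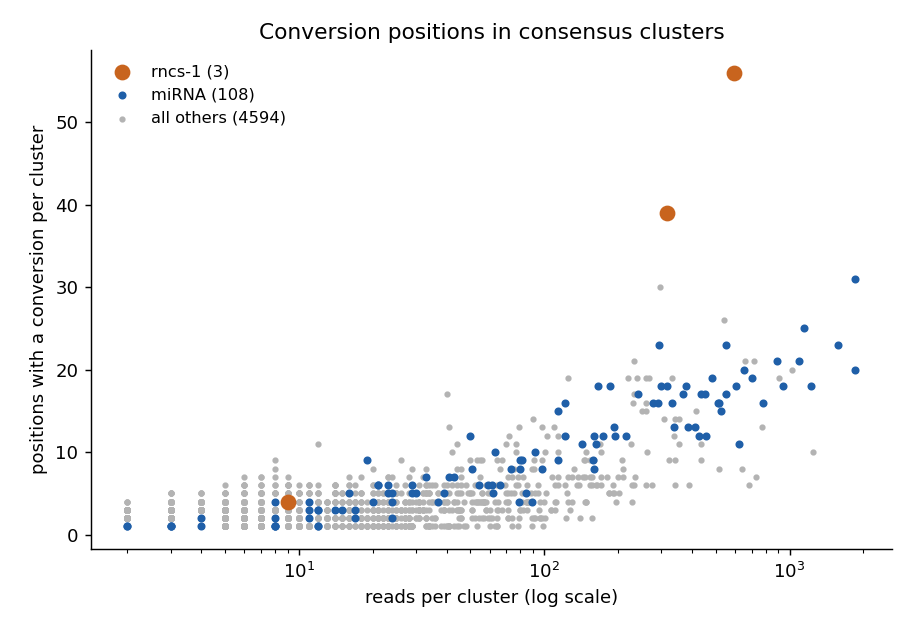
Positions with a conversion against reads (log scale) for each of the 4705 consensus clusters, with the 3 rncs-1 clusters in orange, the 108 miRNA clusters in blue and all others in grey. The last and first rncs-1 clusters, with 56 and 39 positions, lie above every other cluster; the highest other value is 31.

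Among clusters of similar width the density was high. The consensus list held 84 other clusters of at least 200 bases, a minimum chosen after the values were seen, of which 72 lay on coding exons and 10 on the mitochondrial genome. These had 0.279 to 9.77 positions per 100 bases, with a median of 1.46, below the 15.9 and 19.1 of the wide rncs-1 clusters. Their conversions per read reached 0.636 at most, with a median of 0.128, against 0.778 in the last rncs-1 cluster and 0.752 in the first. Over all 4705 consensus clusters these 0.778 and 0.752 ranked 1777 and 1799, between the median of 0.616 and the upper quartile of 1. Among the 57 clusters with at least 300 reads they ranked 11 and 16. By conversions per 100 edits the 84 had a median of 26.3, but the wide rncs-1 clusters did not lie above all of them. Clusters on the ribosomal protein genes rps-0, rpl-3 and rpl-23 had 71.8, 69.2 and 69.2, above both, and one on vit-2 had 63.6, above the first. Each of these rested on 22 to 39 edits, against 707 in the last rncs-1 cluster and 398 in the first. Reads of the 84 other clusters ran from 12 to 718 with a median of 44, so most held fewer reads than the rncs-1 clusters, and the part of depth in the differences in density and in conversions per read was not tested. The authors' entropy score, used here only to rank clusters within the list, was 6.04 for the last rncs-1 cluster, the highest of the list, and 4.61 for the first, which ranked 7.

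The main crosslink position, the single base that the authors name for each cluster, was 1011695 in the first cluster, 1011907 in the middle and 1012121 in the last. These are bases 97 of 246, 21 of 58 and 146 of 293, so in the last cluster it lay close to the centre. Neighbouring main positions were 212 and 214 bases apart.

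All 3 pooled clusters were backed by reads from 3 libraries. Conversions came from 3 libraries in the first and last clusters and from 2 in the middle one. Over the consensus list, 13.2% of clusters had conversions from 3 libraries, while of the 57 clusters with at least 300 reads 54 did. The 3 clusters were in the conservative list with the same values, where every entry has conversions from at least 2 libraries.

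The library lists held far less of rncs-1. T1/V1 replicate 1 had no cluster on it. T1/V1 replicate 2 had 2 clusters with 5 reads, 2 conversions and 3 edits over 99 bases. T1 replicate 3 had 3 clusters with 13 reads, 10 conversions and 16 edits over 208 bases. In T1/V1 replicate 2 these were 2 reads at chrX:1012073-1012130 and 3 reads at chrX:1012210-1012250, each with 1 conversion. In T1 replicate 3 they were 3 reads at chrX:1011674-1011758, 4 reads at chrX:1012003-1012026 and 6 reads at chrX:1012055-1012153, with 3, 4 and 3 conversions. In T1 replicate 3 the 24-base cluster of 4 reads and the cluster of 3 reads thus had as many conversions as reads, each at 3 positions.

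Per 10000 reads of its list, T1/V1 replicate 2 held 4.62 on rncs-1 and T1 replicate 3 held 5.20. As a share of list reads the intervals, 0.0150% to 0.108% for T1/V1 replicate 2 and 0.0277% to 0.0889% for T1 replicate 3, overlapped widely. In the consensus list rncs-1 held 100.2 per 10000. Listed reads averaged 2.5 ± 3.54 over the T1/V1 libraries (SD, n = 2), with the library that lists no cluster taken as 0. That library still gave reads to the pooled clusters if the 3 supporting libraries are the 3 of the series, so a missing cluster is not a missing signal. No test between the nuclease treatments was made, because 2 libraries and 1 leave 1 residual degree of freedom.

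The library clusters lay inside the pooled ones. All 5 fell within the first or the last consensus cluster, and none lay on the middle one. Exon 2 held 4 of them, and exon 1 held a cluster in T1 replicate 3 alone. Together they covered 249 of the 597 bases, or 41.7%. The libraries shared 58 bases, from 1012073 to 1012130, where the T1/V1 replicate 2 cluster lay wholly within a T1 replicate 3 cluster. None of the 5 had the same main crosslink base as the consensus cluster around it, the distances being 46 and 89 bases in T1/V1 replicate 2 and 18, 117 and 18 bases in T1 replicate 3. Over all library clusters that overlap a consensus cluster, the main base was the same for 22.6% of those of T1/V1 replicate 2, with a median distance of 17 bases, and for 62.4% of those of T1 replicate 3, with a median of 0. With 2 to 6 reads per cluster, the main base on rncs-1 rests on very few conversions.

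Most consensus clusters rich in reads had more library reads, relative to pooled reads, than rncs-1 had. The library lists together held 18 reads on rncs-1, or 1.95 for every 100 consensus reads, whereas over whole lists they held 43655, or 47.4 per 100. The last cluster had 2.52 library reads per 100 consensus reads and the first 0.943. Of the 162 consensus clusters with at least 100 reads, 15 lay at or below the value of the last rncs-1 cluster, which is 9.26% of them and includes both rncs-1 clusters. In 10 of the 162 no library cluster overlapped at all. The median of the 162 was 43.9, with 18.5 for the 50 miRNA clusters and 166 for the 25 snoRNA clusters, so pooled counts are not the sum of the library counts. The 6 other noncoding RNA clusters of the set had 33.8 to 155. Clusters of T1/V1 replicate 1, which has none on rncs-1, overlapped 70.4% of the 162, clusters of T1/V1 replicate 2 overlapped 66% and those of T1 replicate 3 overlapped 92%. The sources used here do not say how the authors counted reads in pooled and library lists, and the part of this in the difference was not tested.

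**Figure D4:**
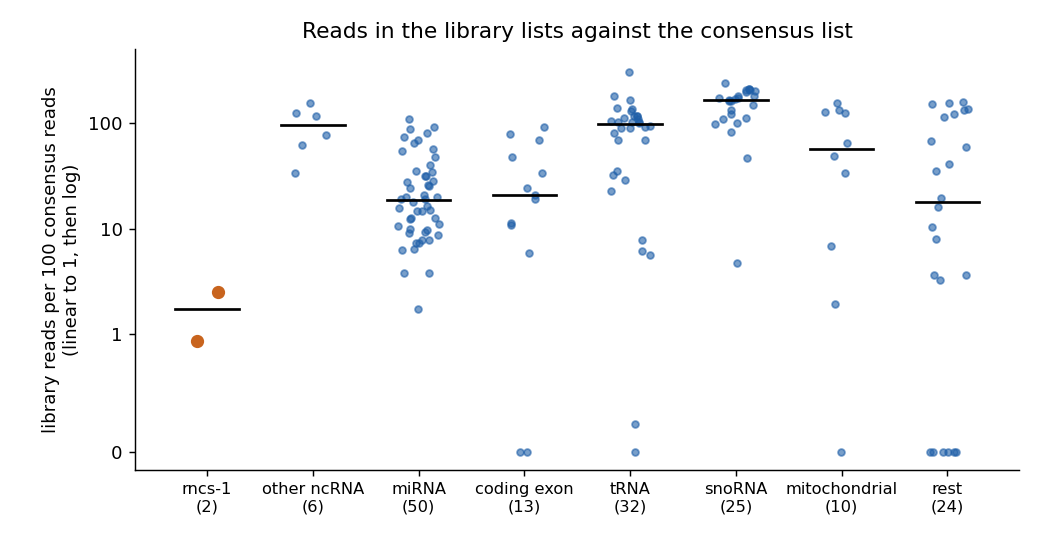
Reads in overlapping library clusters for every 100 consensus reads (linear to 1, then log scale), for each of the 162 consensus clusters with at least 100 reads, by RNA class, with a black line at the median of each class. The 2 rncs-1 clusters lie at 0.943 and 2.52, and the 6 clusters of other noncoding RNA genes at 33.8 to 155.

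On the opposite strand of rncs-1 the consensus list had 2 clusters. One of 21 reads at chrX:1011690-1011772 lay opposite the first cluster, and one of 4 reads at chrX:1012231-1012263 opposite the last. The authors annotated both as lying downstream of F55A4.2, the gene nlf-1, which encodes a factor for localising a sodium leak channel. Such pairs were uncommon: 2.78% of all consensus clusters had an opposite-strand cluster, and 7.02% of those with at least 300 reads, where the 4 clusters included both of rncs-1. Median lengths in these sets were 49 and 74 bases, against 246 and 293 for the rncs-1 clusters. A wider cluster has more room for an overlap of 1 base, and no share matched for width was computed. Opposite reads made up 2.64% of the 947 reads on both strands (1.72% to 3.87%). At the first cluster the share was 6.19% (3.88% to 9.31%) and at the last 0.668% (0.182% to 1.70%). These intervals cover counting error only and hold no replicate error, so a difference between the 2 clusters was not tested. For the 51 clusters of the list that had a weaker cluster opposite, the median share was 23.5%.

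The opposite-strand clusters held 1 and 2 conversions. The one of 21 reads had 1 conversion among 20 edits, from 1 library, against 239 among 398 in the first sense cluster. Its 19 other edits came to 0.905 per read, against 0.500 in the first sense cluster. The one of 4 reads had 2 conversions among 4 edits, from 2 libraries. That is 50 per 100 edits, equal to the median of all consensus clusters, so its share was not low. Neither was in the conservative list, and no library list had a cluster on that strand.

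Set beside other genes, rncs-1 was rich in consensus reads and moderate in density. It ranked 3 by consensus reads among 2446 genes outside the miRNA class, and 11 of 2543 with miRNA genes included. By reads per covered base it ranked 62 of the 2446 genes, and 60 of the 95 genes that had at least 100 reads. Among the 22 genes of the other noncoding RNA class, F08G2.13 had 1024 consensus reads, rncs-1 922 and W01D2.8 906, and K10H10.11, F08G2.12 and W01D2.7 had 340, 259 and 231. This order did not hold in the library lists. There rncs-1 held 0, 5 and 13 reads, in T1/V1 replicates 1 and 2 and T1 replicate 3, fewer than each of these 5 genes. W01D2.7, the lowest of the 5 in each library, held 43, 58 and 78. The class was set from the authors' labels and leaves out the Y RNA yrn-1, whose cluster held 296 reads. M163.13, whose cluster held 332, also lay outside it. Per covered base the order differed, with 1.54 reads on rncs-1, 13.0 on F08G2.13, 10.7 on W01D2.8, 3.70 on K10H10.11, 3.50 on F08G2.12 and 2.96 on W01D2.7. Each of the other 5 genes was covered by a single cluster of 74 to 92 bases.

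In conversions, these 5 genes lay below rncs-1. They had 7.26 to 45.9 conversions per 100 edits, the highest being F08G2.13, against 63.7 on rncs-1. Of all 21 other genes of the class, 2 lay above rncs-1, both with few reads: tts-1 with 14 conversions among 20 edits, and W06H8.5 with 4 among 4. The 21 include rpl-41.2 and ddx-17, whose names are those of protein-coding genes. Each of the 5 had a cluster in all 3 libraries. F08G2.13, for example, had 75 and 119 reads in the T1/V1 libraries and 152 in T1 replicate 3.

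By Euclidean distance over log2(reads + 1) in the 5 lists, the genes nearest to rncs-1 among the 149 genes with at least 100 consensus reads were the tRNA gene F31E9.t1, mir-244 and mir-79, at distances of 1.94, 2.42 and 2.68. F31E9.t1 had 2 reads in T1/V1 replicate 2, none listed in the other T1/V1 library, 40 in T1 replicate 3 and 683 in the consensus list. The miRNA gene mir-244 had 3, 2 and 20 library reads and 653 consensus reads, and mir-79, which lacked a cluster in T1/V1 replicate 1, had 13 and 27 in the others and 318 in the consensus list. These values chose the genes, so they are a description. Each of the 3 was covered over 36 to 70 bases.

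Of 16 genes whose products act on double-stranded RNA or in miRNA processing, 4 had a consensus cluster on an exon, with 44 reads in all, against 10.2% of all protein-coding genes. With 16 genes, this count is given as a description. The gene for Dicer itself, dcr-1, had 30 of these reads and xrn-2, an exonuclease, had 8. In this rescue strain, reads from the tagged dcr-1 and from any native copy cannot be told apart in the lists. No consensus cluster lay on an exon of rde-4, whose product is the double-stranded RNA-binding partner of Dicer in RNA interference, or of adr-1 and adr-2, the genes for the RNA-editing ADAR proteins. These are contacts on mRNAs and do not measure the proteins.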

How the data were processed

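Clusters from 3 PAR-CLIP libraries and 2 pooled lists were used. The submitters' processing notes name Bowtie2 2.1.0. Per the file headers and attributes, the authors called clusters at an estimated false discovery rate of 5%, and each deposited cluster has a raw count of conversions, reads and edits and an entropy score. The sources used here name no genome build.

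The members, gene lists and measures were chosen with earlier results of these data known. Genes named were rncs-1 and the 5 others of the other noncoding RNA class with most consensus reads. The 3 nearest genes by list pattern, the neighbours of rncs-1 with clusters, and the double-stranded RNA genes with most reads were also named. Flanking genes and names came from tables of WormBase identifiers and of assembly WBcel235, whose coordinates were not used. The planned exon length as denominator needs exon ends of the files' build, so the span of the clusters was used. Overlap meant 1 shared base. No test was made, and shares carry exact 95% intervals. Overlap code was tested on simulated data. Mitochondrial clusters were left out of gene counts. The software was SciPy 1.17.1, matplotlib 3.10.9, numpy 2.4.6 and pandas 2.3.3 under Python 3.11.15.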

Additional observations from a re-analysis of the deposited data

How the results depend on the processing

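Of 18 alternatives over 8 results, 12 left the value within its counting interval or replicate spread and 6 moved it. Several of the 12 could not have moved, so the count is no measure of robustness. The mean without either T1/V1 replicate always lies within the SD of the pair. The conservative list holds the same sense clusters of rncs-1 with the same values. Without the strongest cluster, conversions per 100 edits were 60.5, and with clusters of 10 or more reads the covered share was 80.4%. The opposite-strand share was 0 in the conservative list. The share of consensus clusters with an opposite-strand cluster was 2.15% with an overlap of 20 bases and 5.86% among clusters of 10 or more reads. By reads per covered base rncs-1 ranked 62. Leaving out a T1/V1 replicate gave mean listed reads of 0 to 5. The ratio of T1/V1 replicate 2 to T1 replicate 3 was 0.385 in raw reads, 0.887 per list read and 0.833 over nuclear reads without miRNA. The causes were not tested. The gene span as denominator was not run, as it needs the build. No paired analysis was possible because the groups share no replicate number.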

Other observations

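The usual spacing of clusters on chromosome X was not computed, so only distances from the rncs-1 locus are given. The nearest other consensus cluster before it, of 4 reads on an exon of the astacin protease gene nas-15, lay 231982 bases away. The nearest one after it, of 4 reads and with no sense gene, lay 73353 bases away, and the nearest one on an exon, of 3 reads on the sorting nexin gene snx-1, lay 118893 bases away. The genes that flank rncs-1 in the later annotation, cutl-21 and nlf-1, had no cluster on an exon in any of the 5 lists.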
